A study of Mus with 21 samples.

Results

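The interferon-inducible GTPases described here are 10 of the 18806 genes in the count files. They are 4 guanylate-binding proteins (Gbp2, Gbp3, Gbp5 and Gbp7), 4 immunity-related GTPases with established names (Igtp, Irgm1, Irgm2 and Iigp1) and 2 genes known by their clone or model names, Gm12185 and F830016B08Rik. They were taken by symbol from a fixed list. Gm12185 and F830016B08Rik were named by the study from its own comparison of 6.4-GelMA/aFGF with 7.4-GelMA/aFGF, and the rest were selected with the values of that comparison known. The values the genes were chosen by are therefore the levels in those 2 groups, and their difference is given only as a description. The libraries came from full-thickness skin wounds, 8 mm across and made on both sides of the back of wild-type C57BL/6 mice, and were collected on Day 4. The study's methods describe female mice aged 8 weeks, with 3 mice in each of 7 groups. The control wounds had no hydrogel. The other 6 groups received a scaffold of GelMA, a photo-crosslinked gelatin hydrogel, adjusted to pH 6.4 (weakly acidic), pH 7.4 (neutral) or pH 8.4 (weakly alkaline) and loaded with either aFGF or bFGF, the acidic and basic fibroblast growth factors. No group had a hydrogel without a growth factor, so the effect of the gel and that of the growth factor cannot be told apart in a comparison with control. Nor can fewer cells of a type and less RNA per cell be told apart in whole wound tissue.

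Guanylate-binding proteins (GBPs) and immunity-related GTPases (IRGs) are large GTPases that cells make when interferon gamma, released mainly by T cells and NK cells, binds its receptor and activates the kinases Jak1 and Jak2. The transcription factor Irf1, itself induced by interferon gamma, takes part in switching on these genes along with those for antigen presentation. Macrophages, fibroblasts and keratinocytes can all respond, and the proteins are best known for attacking the vacuoles in which intracellular microbes live. Among the IRGs, Irgm1, Irgm2 and Igtp (also called Irgm3) are regulators that sit on the cell's own membranes and restrain the effector IRGs, of which Iigp1 (Irga6) is the best studied. Gbp2 is recruited to microbes and their vacuoles, Gbp5 is linked to activation of the NLRP3 inflammasome and Gbp7 to the phagocyte oxidase. Gm12185 and F830016B08Rik are predicted to encode IRG proteins.

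Total counts were 34362558 to 37817833 per library. Levels are given as CPM, the usual depth-normalised read count, with library totals adjusted by TMM over the 21 libraries, and levels of different genes are compared in FPKM, which also divides by gene length. A library with a count of 0 may still have held a gene at up to 3 counts, and such limits cover counting error only. Epidermal and fibroblast markers were present in every library, with 1740 to 5043 and 32370 to 71120 summed CPM. Some libraries held transcripts of other tissues: 7.4-GelMA/aFGF replicate 3 had 306 summed CPM of 3 cartilage markers (at most 1.32 elsewhere), 8.4-GelMA/aFGF replicate 2 had 173 of 3 liver markers (at most 15.5 elsewhere) and 8.4-GelMA/bFGF replicate 2 had 602 of 3 ovary and oviduct markers (at most 20.0 elsewhere). Their part in the results was not tested.

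Per gene length, Gbp2 was the most abundant of the 10 genes, with a mean of 62.5 FPKM over the 21 libraries. Igtp (31.5 FPKM), Irgm1 (31.2 FPKM), Iigp1 (30.9 FPKM) and Irgm2 (22.6 FPKM) followed, with overlapping ranges over the libraries. Gbp3 (16.0 FPKM), Gbp7 (11.4 FPKM) and Gbp5 (11.4 FPKM) came next. F830016B08Rik (1.99 FPKM) and Gm12185 (0.302 FPKM) were far lower. Gm12185 rested on as few as 10 counts in a library, whereas the lowest count of Gbp2 in any library was 1818.

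In the RefSeq gene order, the 10 genes lie in 4 runs of related genes. A run allowed up to 2 other protein-coding genes between its neighbours. Gbp5, Gbp7, Gbp3, Gbp2b and Gbp2 form a run in that order. Irgm1 and Gm12185 lie in a run of 8 Irg genes that ends with Ifi47. Igtp and Irgm2 follow Gm12250 in another run, and F830016B08Rik and Iigp1 follow Gm4951 and Gm4841 in the last. Genes of these runs are similar in sequence. How the counting assigned reads that fit several of them is not given in the sources used here, so levels of close relatives may share reads.

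Each of the 10 genes was highest in the same library, 7.4-GelMA/aFGF replicate 1. Gbp2 was at 593, 102 and 577 CPM in the 3 libraries of 7.4-GelMA/aFGF and at 141, 460 and 101 CPM in the 3 control libraries. In the other 5 groups, Gbp2 ranged from 51.2 CPM (6.4-GelMA/aFGF replicate 1) to 192 CPM (7.4-GelMA/bFGF replicate 3). The high values thus came from replicates 1 and 3 of 7.4-GelMA/aFGF and replicate 2 of the control, while the other libraries of both groups lay within the range of the remaining ones. Iigp1 gave the same picture, with 524, 110 and 186 CPM in 7.4-GelMA/aFGF and 103, 244 and 84.4 CPM in control against 28.3 to 139 CPM elsewhere. For 10 of the 10 genes, the 3 highest libraries were these same 3. Over all 15811 genes tested across the 21 libraries, this held for 132 (0.835%), and 1949 (12.3%) were highest in 7.4-GelMA/aFGF replicate 1. Because the genes were chosen with the 7.4-GelMA/aFGF values known, the high rank of that group is not independent of the choice.

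**Figure D1:**
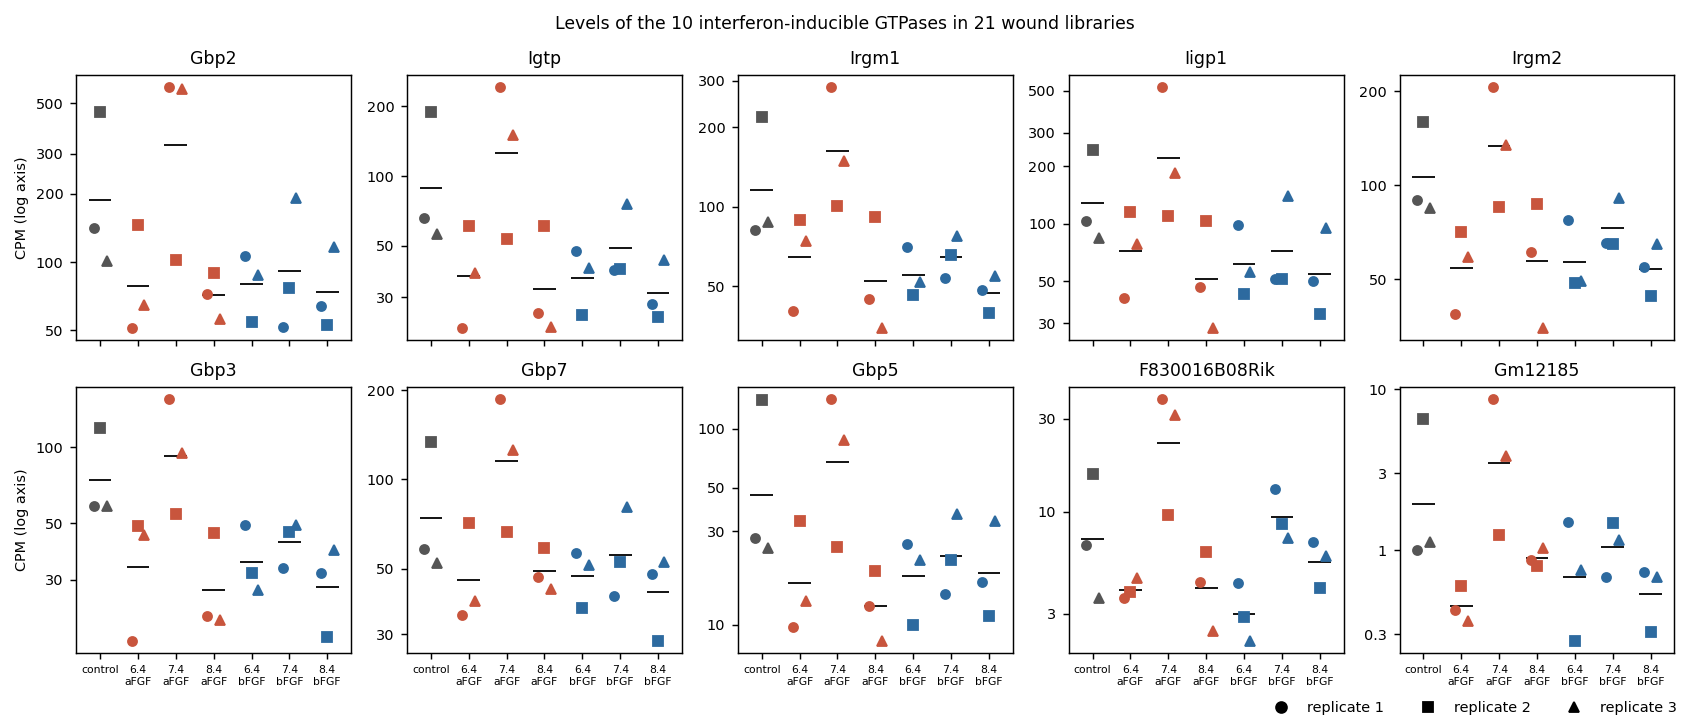
CPM on log axes of each of the 10 genes in the 21 libraries, by group, with a marker shape per replicate and a bar at the geometric mean of the 3 libraries of a group. Replicates 1 and 3 of 7.4-GelMA/aFGF and replicate 2 of the control lie above all other libraries in every panel.

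The spread between the lowest and the highest library differed from gene to gene. The ratio of highest to lowest CPM was 31.6 for Gm12185, 18.5 for Iigp1, 17.3 for F830016B08Rik, 17.1 for Gbp5 and 11.6 for Gbp2. It was 5.94 for Irgm2 and 6.53 for Gbp7, the lowest of the 10. Replicates of 1 group differed more in these genes than in most. The SD of log2 CPM within groups was 0.480 (Irgm2) to 0.965 (Gbp5), with a median of 0.721 over the 10 genes against 0.287 over all tested genes.

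The mean log2 CPM of the 10 genes summarises each library. It was 6.33 ± 1.01 (SD, n = 3) in 7.4-GelMA/aFGF, 5.65 ± 0.937 in control and 4.96 ± 0.412 in 7.4-GelMA/bFGF. The 2 acidic groups followed with 4.51 ± 0.569 (6.4-GelMA/aFGF) and 4.51 ± 0.491 (6.4-GelMA/bFGF). The 2 alkaline groups were lowest, with 4.44 ± 0.529 (8.4-GelMA/aFGF) and 4.44 ± 0.486 (8.4-GelMA/bFGF). Every group overlapped with the next one in this order, so no 2 neighbours were separated beyond the spread between their libraries. Replicate 2 of 7.4-GelMA/aFGF, at 5.24, was close to control replicates 1 (5.21) and 3 (5.01).

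The 10 genes varied together from library to library. Pearson's r of log2 CPM between any pair of them was 0.745 to 0.969 over the 21 libraries (median 0.919 of 45 pairs). Without the 3 highest libraries it was 0.191 to 0.931 over 18 libraries (median 0.766), and for the deviations from the group means it was 0.639 to 0.972 (median 0.849). Igtp was the closest to the others, with a median r of 0.957. F830016B08Rik was the least close, with a median r of 0.770 that came to 0.377 without the 3 highest libraries, and Gm12185 followed with 0.851 and 0.505. The points of each r are the same libraries with the same totals, so these values describe the libraries and carry no test. Because the 10 genes varied together, also within groups, a count of them in a comparison below is not a count of separate results.

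**Figure D2:**
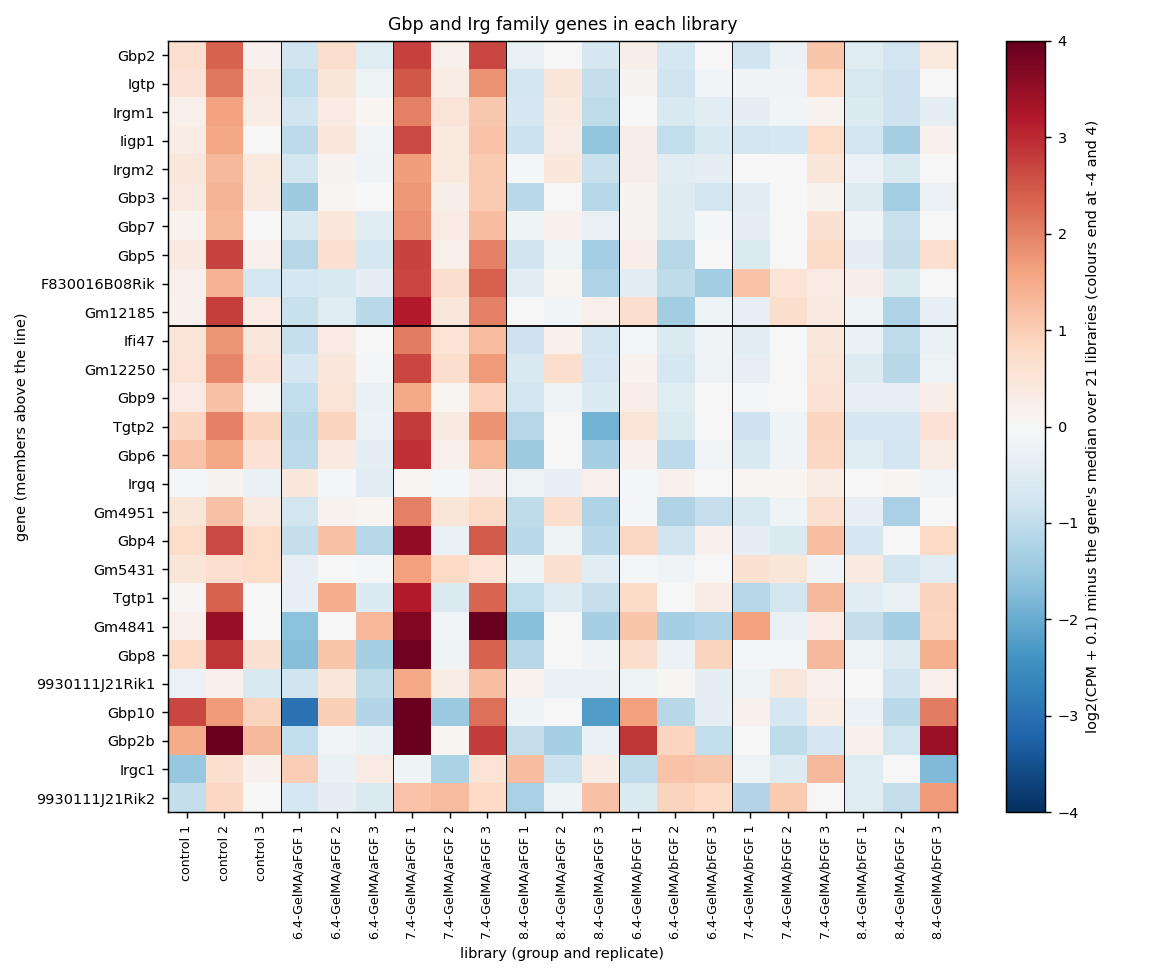
Log2(CPM + 0.1) of 27 Gbp and Irg genes (rows, the 10 members above the line and the other 17 below) in the 21 libraries (columns), as the difference from the gene's own median, with colours ending at -4 and 4. Control replicate 2 and replicates 1 and 3 of 7.4-GelMA/aFGF form red columns through most rows, whereas Irgq stays pale throughout.

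The relatives outside the list shared this pattern in part. Among the 17 other Gbp and Irg genes in the files, 10 had the same 3 highest libraries and 13 were highest in 7.4-GelMA/aFGF replicate 1. Ifi47, an interferon-inducible IRG, was at 242, 85.2 and 139 CPM in 7.4-GelMA/aFGF and at 83.0, 197 and 79.8 CPM in control, with the same 4 highest libraries, in the same order, as Irgm1. Gbp4 reached 143 CPM in 7.4-GelMA/aFGF replicate 1 against 5.44 CPM in its lowest library. Irgq, an IRG relative that is not induced by interferon, ranged only from 24.3 to 45.0 CPM and was highest in 6.4-GelMA/aFGF replicate 1. Irgc1, at most 0.972 CPM, also had its highest library elsewhere. Gm5431, 9930111J21Rik1, 9930111J21Rik2, Gbp10 and Gbp2b likewise had other libraries among their 3 highest.

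By the measure of likeness fixed for this description, Pearson's r with the mean z-scored log2 CPM of the 10 genes over the 21 libraries, the genes with the most similar patterns outside both families included Dtx3l (r = 0.955), Nlrc5 (0.941), Tapbp (0.940), Tapbpl (0.938), Tap2 (0.935), Calhm6 (0.935), Tap1 (0.935), Il18bp (0.934) and Psmb9 (0.933). Nlrc5 activates MHC class I genes, Tap1, Tap2, Tapbp and Tapbpl serve the loading of peptides onto MHC class I, Psmb9 is a subunit of the immunoproteasome and Il18bp neutralises interleukin 18. Without the 3 highest libraries, r of these genes was 0.735 (Il18bp) to 0.848 (Tapbpl).

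Irf1 was at 293, 67.5 and 218 CPM in 7.4-GelMA/aFGF and at 74.6, 437 and 72.8 CPM in control. Its highest library was thus the control one, and its r with the 10 genes was 0.858, or 0.469 without the 3 highest libraries. Ifng, which encodes interferon gamma itself, was counted 157 times in control replicate 2 (4.49 CPM), 109 times in replicate 1 of 7.4-GelMA/aFGF (3.11 CPM) and 31 times in replicate 3 of that group (0.832 CPM). In the other 18 libraries it had 0 to 13 counts, with 0 in replicates 1 and 2 of 8.4-GelMA/aFGF and replicate 1 of 8.4-GelMA/bFGF. A count of 0 allows up to 3 counts, so Ifng could not be ordered among most of these libraries at this depth. Pearson's r of Ifng with the 10 genes was 0.798 over the 21 libraries and 0.192 without the 3 highest ones.

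**Figure D3:**
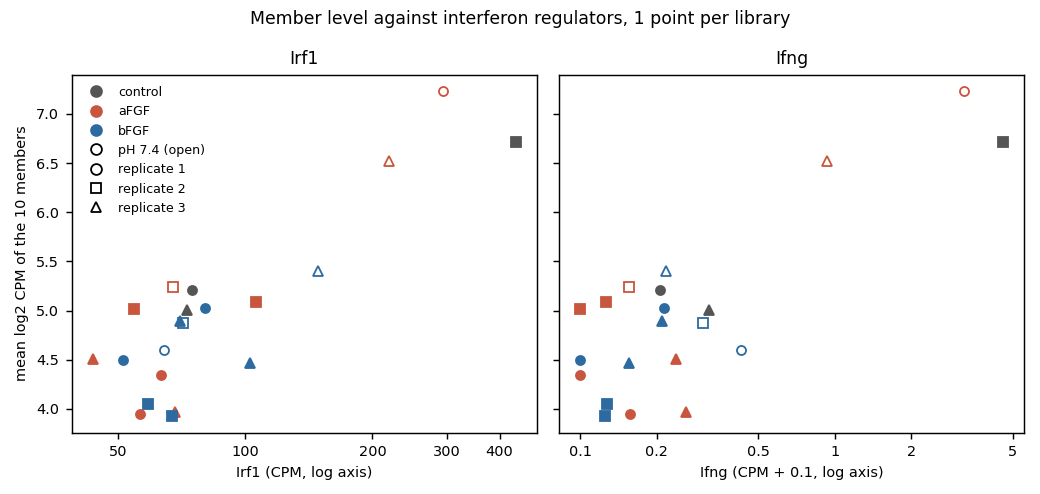
Mean log2 CPM of the 10 genes (vertical axis) against CPM of Irf1 and Ifng (log axes, Ifng plus 0.1), 1 point per library, coloured by growth factor, with open symbols for pH 7.4 and a shape per replicate. Control replicate 2 and replicates 1 and 3 of 7.4-GelMA/aFGF stand to the upper right in each panel, and among the other 18 libraries r with the 10 genes was 0.469 for Irf1 and 0.192 for Ifng.

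T and NK cell markers are the cell type markers nearest to a source of interferon gamma. Of the 10 listed, 9 were measured, each with counts in every library (Cd3e, Cd3d, Cd3g, Cd4, Cd8a, Ncr1, Klrb1c, Gzmb and Prf1), and 9 of 9 were highest in 7.4-GelMA/aFGF replicate 1. Their summed level was 39.6 to 205 CPM in 7.4-GelMA/aFGF and 32.8 to 105 CPM in control, and between 23.6 and 56.4 CPM in the other 5 groups. The highest library was replicate 1 of 7.4-GelMA/aFGF and the second was control replicate 2. Replicate 3 of 7.4-GelMA/aFGF, in which the 10 genes were also high, had the 39.6 CPM, below the median of 45.0 CPM over the 21 libraries. The sum of 6 macrophage and monocyte markers was also highest in 7.4-GelMA/aFGF replicate 1 (7656 CPM, against 3896 to 7101 elsewhere), as were 4 of the 6 singly. The sum of 4 plasmacytoid dendritic cell markers was highest in control replicate 2 (376 CPM, with a median of 253 CPM). Singly, 2 of these 4 were highest in 7.4-GelMA/aFGF replicate 1. The part of these cells in the levels of the 10 genes was not tested.

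In the comparison that entered the choice, 6.4-GelMA/aFGF against 7.4-GelMA/aFGF, all 10 genes had lower means in 6.4-GelMA/aFGF, where 47.6% of the genes compared had a log2 fold change below 0. F830016B08Rik was at 3.61, 3.87 and 4.55 CPM in 6.4-GelMA/aFGF and at 37.8, 9.62 and 31.4 CPM in 7.4-GelMA/aFGF. Gm12185 was at 0.423, 0.601 and 0.361 CPM in 6.4-GelMA/aFGF and at 8.67, 1.24 and 3.87 CPM in 7.4-GelMA/aFGF. In both genes the 3 acidic libraries lay below the 3 neutral ones, also below replicate 2 of 7.4-GelMA/aFGF. The libraries did not overlap in 5 of the 10 genes (F830016B08Rik, Gm12185, Gbp3, Irgm1 and Irgm2), where 4.84% of the 15019 genes compared did not overlap in this direction. The log2 fold changes ranged from -3.30 (Gm12185) to -1.34 (Irgm2), with a median of -1.84, and 0.015 over all genes. With replicate 2 as the only 7.4-GelMA/aFGF library, the median was -0.53.

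The pH contrast could be tested in the wounds with bFGF, whose libraries were not part of the comparison that entered the choice. Between 6.4-GelMA/bFGF and 7.4-GelMA/bFGF, F830016B08Rik had the largest difference of the 10 genes. It was at 4.32, 2.88 and 2.18 CPM in 6.4-GelMA/bFGF and at 13.0, 8.69 and 7.37 CPM in 7.4-GelMA/bFGF. Every acidic library lay below every neutral one. The log2 fold change was -1.61 (SE 0.344, 95% interval -2.44 to -0.78), with an adjusted p of 0.542 in edgeR's quasi-likelihood test over 14976 genes, and 0.0029 before adjustment. It was the 1 of the 10 genes whose libraries did not overlap, as in 8.07% of all tested genes in this direction. It was also the 1 with an unadjusted p under 0.05 in the lower direction, as in 4.01% of all tested genes. A count of 1 in 10 is near these shares and does not set the 10 genes apart. DESeq2 gave F830016B08Rik an adjusted p of 0.00304 in the same comparison, so the call depended on the tool. By DESeq2, 0.631% of the 17903 genes it fitted were called.

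The remaining 9 genes also had lower means in 6.4-GelMA/bFGF, but their libraries overlapped. A log2 fold change below 0 was thus found for 10 of 10 genes, and for 48.8% of all tested genes. Igtp was at 47.3, 25.2 and 40.3 CPM in 6.4-GelMA/bFGF and at 39.3, 39.9 and 75.8 CPM in 7.4-GelMA/bFGF. The 2 lower neutral libraries lay within the acidic range and replicate 3 above it, and the log2 fold change was -0.43 (SE 0.327, adjusted p = 0.701, edgeR). The log2 fold changes of these 9 genes were -0.43 (Igtp) to -0.20 (Irgm1), the median over the 10 was -0.31 and that over all genes 0.006. In edgeR's test, 0 of the 10 genes were called (adjusted p under 0.05 with more than 0.58 between the groups on the log2 scale), as were 0% of all tested genes, and 8.89% of all tested genes had an unadjusted p under 0.05 in either direction. The 95% interval of the Gbp2 difference was -1.53 to 0.87, which leaves room for large differences in either direction. In the same comparison, 4 of 4 neutrophil markers (median -0.19) and 4 of 4 skeletal muscle markers (median -1.95) had lower means in 6.4-GelMA/bFGF. Of the epidermal markers, 5 of 5 had higher ones (median 0.86), and the macrophage and monocyte markers divided 3 and 3. The part of these markers in the result was not tested.

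Between 8.4-GelMA/bFGF and 7.4-GelMA/bFGF, which shares its neutral libraries with the comparison above, all 10 genes had lower means in the alkaline group, where 50% of all tested genes had a log2 fold change below 0. Irgm1 was at 48.5, 39.8 and 54.6 CPM in 8.4-GelMA/bFGF and at 53.6, 65.7 and 77.6 CPM in 7.4-GelMA/bFGF. Replicate 3 of the alkaline group lay just above replicate 1 of the neutral one, so the groups overlapped. The log2 fold change of Irgm1 was -0.43 (SE 0.168, edgeR), with an adjusted p of 0.861, and 0.0402 before adjustment, the smallest of the 10. F830016B08Rik was at 6.96, 4.04 and 5.91 CPM in 8.4-GelMA/bFGF, all below the 7.37 CPM of the lowest neutral library, with a log2 fold change of -0.76 (SE 0.306, adjusted p = 0.861, edgeR). Gm12185 had the largest difference, -0.91 on the log2 scale (SE 0.503, adjusted p = 0.864, edgeR), and its libraries overlapped. Irgm1 and F830016B08Rik were the 2 genes with an unadjusted edgeR p under 0.05 in the lower direction, as were 2.99% of all tested genes. F830016B08Rik and Irgm2 were the 2 whose libraries did not overlap, as in 7.19% of all tested genes in that direction. For Irgm2 the gap was narrow, from 64.75 CPM in the highest alkaline to 64.80 CPM in the lowest neutral library. In edgeR's test 0 of the 10 were called, as were 0% of the 15092 genes tested, and DESeq2 called 0 of the 10 as well, against 0.149% of all genes it fitted. The median log2 fold change was -0.42, and -1.5e-05 over all genes. In the same comparison, 6 of 6 macrophage and monocyte markers (median -0.29) and 4 of 4 neutrophil markers (median -0.43) had lower means in 8.4-GelMA/bFGF, and 5 of 5 epidermal markers had higher ones (median 1.09). Their part in the result was not tested.

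The acidic and the alkaline bFGF groups, both of which appear above, were also compared directly. Here 8 of the 10 genes had higher means in 6.4-GelMA/bFGF and 2 (F830016B08Rik and Gbp5) in 8.4-GelMA/bFGF, with 50.1% of all tested genes below 0. F830016B08Rik, with the values given above, was lower in 6.4-GelMA/bFGF by a log2 fold change of -0.85 (SE 0.336, adjusted p = 0.651, edgeR), and the highest acidic library (4.32 CPM) overlapped with the lowest alkaline one (4.04 CPM). It was the 1 gene with an unadjusted edgeR p under 0.05 in the lower direction, against 4.61% of all tested genes. In this comparison, 0 of the 10 genes were called in edgeR's test, as were 0% of the 15022 genes, and DESeq2 called 0 too, against 0.116% of all genes it fitted. The libraries did not overlap in 0 of the 10, against 6.54% of all tested genes in the lower and 6.6% in the higher direction. The median log2 fold change was 0.15. Its direction turned without 6.4-GelMA/bFGF replicate 1, where it was -0.15, and without 8.4-GelMA/bFGF replicate 2, the library with ovary and oviduct markers, where it was -0.05.

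The growth factors were compared at pH 8.4, where neither group was part of the comparison that entered the choice. The 10 genes divided evenly, 5 with the higher mean in 8.4-GelMA/aFGF and 5 in 8.4-GelMA/bFGF, where 51.4% of all tested genes were below 0. Gm12185 was at 0.871, 0.800 and 1.02 CPM with aFGF and at 0.735, 0.309 and 0.680 CPM with bFGF. Its libraries did not overlap, as in 14.9% of all tested genes in this direction and 12.8% in the other, and the log2 fold change was 0.64 (SE 0.466, adjusted p = 0.451, edgeR). Gbp5 was lower with aFGF by a log2 fold change of -0.63 (SE 0.469, adjusted p = 0.461, edgeR), with 12.4, 18.8 and 8.28 CPM against 16.4, 11.0 and 33.8 CPM. In Gbp5 the groups overlapped. Iigp1 (-0.001) and Gbp3 (-0.005) had nearly equal means, with 95% intervals of -1.31 to 1.30 and -0.97 to 0.96. In edgeR's test 0 of the 10 genes were called, as were 0.00665% of the 15041 genes, and 21.1% of all tested genes but 0 of the 10 had an unadjusted p under 0.05 in either direction. DESeq2 called 0 of the 10, against 5.21% of the 18208 genes it fitted. The median log2 fold change of the 10 genes, 0.08, turned to -0.38 without 8.4-GelMA/aFGF replicate 2, the library with liver markers. It was -0.15 without 8.4-GelMA/bFGF replicate 2, and between -0.18 and -0.11 with limma on FPKM. Macrophage and monocyte markers (6 of 6, median 0.36) and neutrophil markers (4 of 4, 0.48) had higher means with aFGF. Fibroblast markers (5 of 5, -0.41) and endothelial markers (4 of 4, -0.28) had lower ones. The part of these markers in the result was not tested.

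**Figure D4:**
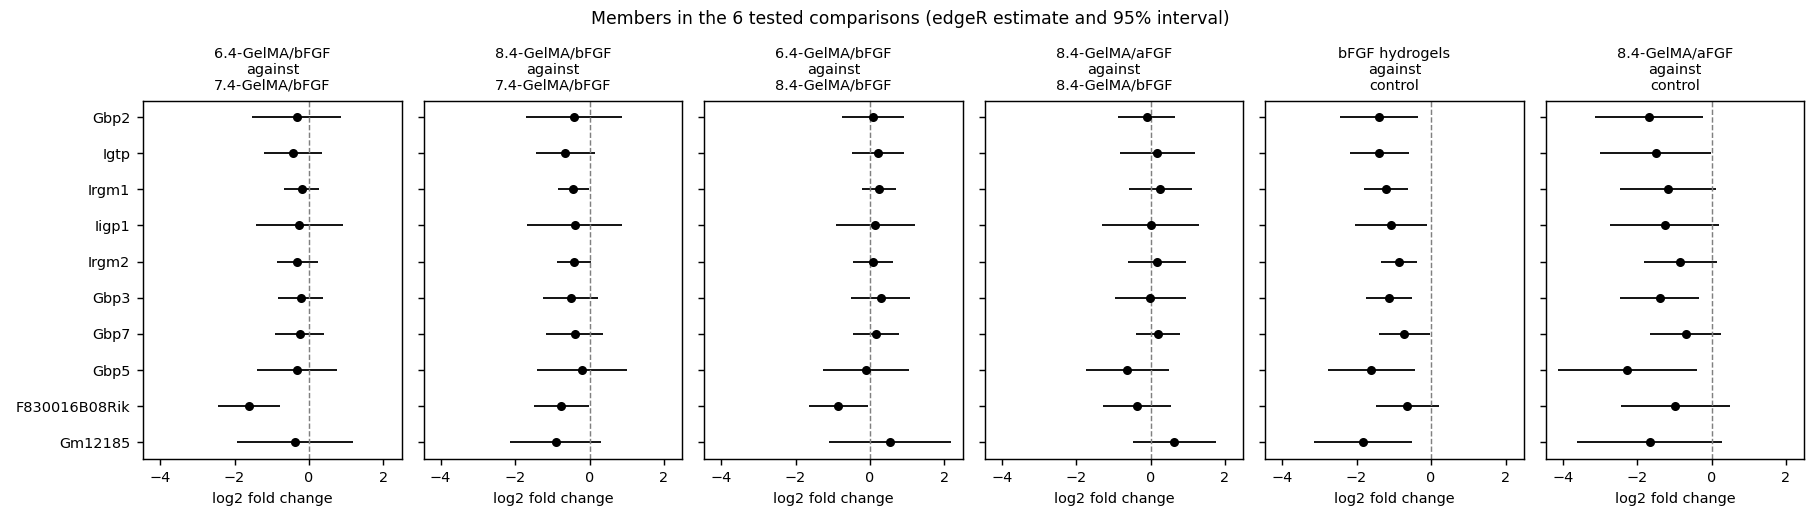
Log2 fold changes (horizontal axis) of the 10 genes (rows) in the 6 tested comparisons, as edgeR estimates with 95% intervals and a dashed line at 0. Most intervals cross 0 in the 4 comparisons between hydrogels, and in the 2 comparisons with control all 10 estimates lie on the negative side.

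By the median of the 10 genes over all libraries, the comparisons with control gave the largest of the 6 tested differences. That ranking leaned on control replicate 2. Without it the medians were -0.46 (bFGF hydrogels) and -0.57 (8.4-GelMA/aFGF), close to the -0.42 of 8.4-GelMA/bFGF against 7.4-GelMA/bFGF. Irgm1 was at 82.1, 219 and 87.5 CPM in the 3 control wounds. It was at 70.8, 46.5 and 51.8 CPM in 6.4-GelMA/bFGF, with the values for the other bFGF groups given above. All 9 bFGF libraries, at most 77.6 CPM, lay below the lowest control. The log2 fold change of the mean of the 3 bFGF groups against control was -1.21 (SE 0.266, 95% interval -1.80 to -0.62), with an adjusted p of 0.145 in edgeR's test over 15507 genes, and 0.001 before adjustment. Gbp3, at 58.7, 118 and 58.4 CPM in control and at most 49.4 CPM with bFGF, did not overlap either, and its log2 fold change was -1.13 (SE 0.278, adjusted p = 0.169, edgeR).

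All 10 genes had lower means in the bFGF hydrogels than in control, against 53.4% of all tested genes, with log2 fold changes from -1.83 (Gm12185) to -0.64 (F830016B08Rik) and a median of -1.17, against -0.02 over all genes. Gm12185 was at 1.00, 6.53 and 1.13 CPM in control and at 0.274 to 1.497 CPM in the 9 bFGF libraries, which thus overlapped with replicates 1 and 3 of the control but not with replicate 2. Its log2 fold change had an SE of 0.597 and an adjusted p of 0.256 (edgeR). An unadjusted edgeR p under 0.05 in the lower direction was found for 9 of the 10 genes, all but F830016B08Rik, and for 7.94% of all tested genes. As these genes varied together from library to library, the 9 are not 9 separate results. The libraries did not overlap in 2 of the 10, against 1.72% of all tested genes in that direction. After adjustment, 0 of the 10 genes were called, as were 0% of all tested genes. DESeq2 called 4 of the 10, all lower with bFGF: Irgm1 (adjusted p = 0.00656), Gbp3 (0.02), Igtp (0.0225) and Irgm2 (0.0328). Over all genes DESeq2 called 1.24% of the 18499 it fitted. With all 3 control libraries, 8 of 9 T and NK cell markers also had lower means with bFGF (median log2 fold change -0.81). The summed level of these markers was 105 CPM in control replicate 2 and 32.8 CPM in the lowest control library. In the 9 bFGF libraries it was 23.6 to 53.7 CPM. Of 5 neutrophil markers, 4 had higher means with bFGF (median 0.88), with 692 to 7223 summed CPM among the 3 control libraries. The marker counts were not repeated without control replicate 2. The part of these cell types in the result was not tested.

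The difference was smaller without control replicate 2. In that setting, the median log2 fold change of the 10 genes was -0.46, an unadjusted edgeR p under 0.05 in the lower direction was left for 3 of them (Irgm1, Gbp3 and Irgm2), against 11.9% of the 15759 genes then tested, and 305 genes in all (1.94%) were called, none of them among the 10. Irgm1 then had a log2 fold change of -0.59 (SE 0.169, adjusted p = 0.0809, edgeR), Gbp3 one of -0.70 (SE 0.271) and Gm12185 one of -0.38 (SE 0.558). F830016B08Rik, at 6.77, 15.6 and 3.61 CPM in control and 2.18 to 13.0 CPM with bFGF, had a log2 fold change of 0.10 (SE 0.347, adjusted p = 0.889, edgeR) without that library, so its direction turned.

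8.4-GelMA/aFGF was compared with the same control libraries. Gbp5 was at 12.4, 18.8 and 8.28 CPM in 8.4-GelMA/aFGF and at 27.9, 140 and 24.6 CPM in control. No library of the first group reached the lowest control. The log2 fold change was -2.27 (SE 0.773, 95% interval -4.14 to -0.40), the largest of the 10, with an adjusted p of 0.423 (edgeR). Gbp3 was at 21.5, 46.0 and 20.8 CPM in 8.4-GelMA/aFGF, below each control library, and its log2 fold change of -1.39 (SE 0.441, adjusted p = 0.423, edgeR) had the smallest unadjusted p, 0.0182. Gbp2 did not overlap either, at 72.2, 89.6 and 56.2 CPM against at least 101 CPM in control, with a log2 fold change of -1.67 (SE 0.601, adjusted p = 0.424, edgeR).

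In 8.4-GelMA/aFGF, too, all 10 genes had lower means than in control, against 50.3% of all tested genes. The 3 genes without overlap, all GBPs, compare with 8.28% of all tested genes in that direction. Igtp joined them among the 4 genes with an unadjusted edgeR p under 0.05 in the lower direction, which 5.61% of the 15052 tested genes had. In edgeR's test 0 of the 10 were called, as were 0% of all tested genes, and DESeq2 called 0 of the 10, against 1.29% of all genes it fitted. Gbp7 differed least, with a log2 fold change of -0.70 (SE 0.394, adjusted p = 0.479, edgeR). The median was -1.33, and -0.002 over all genes. Without control replicate 2 it was -0.57, 3 of the 10 genes (Gbp2, Gbp5 and Gbp3) had an unadjusted edgeR p under 0.05 in the lower direction, against 13.5% of the 15308 genes then tested, and 1198 genes in all (7.83%) were called, none of them among the 10. Gbp5 then had a log2 fold change of -0.95 (SE 0.337), Gbp3 one of -0.95 (SE 0.367), Gbp2 one of -0.69 (SE 0.240) and Gbp7 one of -0.11 (SE 0.168). With the 3 control libraries, 8 of 9 T and NK cell markers had lower means in 8.4-GelMA/aFGF (median -1.01) and 5 of 5 neutrophil markers higher ones (median 1.21). The T and NK cell markers summed to 33.7 to 56.4 CPM in 8.4-GelMA/aFGF and to 32.8 to 105 CPM in control. The 105 CPM were those of control replicate 2, and the marker counts were not repeated without it. The part of these cell types in the result was not tested.

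The other genes of the pathway were counted in the same tests, from lists chosen with earlier results of these data known. With all libraries kept, none of these genes was called in any of the 6 comparisons by edgeR. Counts are therefore given at an unadjusted p under 0.05. Of the other 6 Gbp genes in the files, 6 of 6 were lower in 8.4-GelMA/aFGF than in control by that measure and had libraries that did not overlap, against 5.61% and 8.28% of all tested genes. Without control replicate 2 it was 6 of 6 again, against 13.5% of all tested genes, and their median log2 fold change was -1.51 in place of -2.28. Gbp4 was at 5.72, 10.5 and 5.69 CPM in 8.4-GelMA/aFGF and at 20.1, 75.7 and 20.0 CPM in control. Gbp6 (-1.89) and Gbp9 (-1.06), the most abundant of these genes in CPM, had log2 fold changes with SEs of 0.469 and 0.326 and adjusted p of 0.423 each (edgeR). In the bFGF hydrogels against control, 4 of the 6 and 6 of the other 11 Irg genes were lower by that measure, against 7.94% of all tested genes, among them Ifi47 (log2 fold change -1.27, SE 0.282, adjusted p = 0.145, edgeR), while Irgq was not (0.14, SE 0.095, adjusted p = 0.542, edgeR). Without control replicate 2, 1 of the 6 Gbp genes and 2 of the 11 Irg genes were lower by that measure, near the 11.9% of all tested genes. The median of the Irg genes turned from -1.01 to 0.13. Gbp6 and Ifi47 were among these lower genes, with log2 fold changes of -1.01 (SE 0.384) and -0.71 (SE 0.225). In that setting 1 of the 11 Irg genes, Irgq, was higher (0.24, SE 0.093, adjusted p = 0.157, edgeR), as were 1955 of 15759 genes.

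Among 15 further targets of interferon gamma, 11 were lower in the bFGF hydrogels than in control at an unadjusted edgeR p under 0.05, and 8 were lower in 8.4-GelMA/aFGF, with medians of -0.73 and -0.91 on the log2 scale. The same held for 7.94% and 5.61% of all tested genes. Without control replicate 2, 5 and 6 of the 15 were lower, against 11.9% and 13.5% of all genes then tested. In each comparison 2 were higher, against 1955 of 15759 and 2686 of 15308 genes. The medians of the 15 targets were then -0.33 and -0.55. Their most abundant gene, Nos2, the inducible nitric oxide synthase, was not among the lower ones with all control libraries (log2 fold changes of -0.20 and -0.59, SE 1.12 and 1.63). Without control replicate 2, Nos2 was called higher in both comparisons. Its log2 fold changes were then 4.49 (SE 0.92, adjusted p = 0.0447, edgeR) and 4.15 (SE 0.697, adjusted p = 0.0342, edgeR). With all control libraries, Ifi30, a lysosomal reductase of antigen processing, had log2 fold changes of -0.30 (SE 0.121, adjusted p = 0.319, edgeR) and -0.08 (SE 0.116, adjusted p = 0.77, edgeR). Of the regulators upstream, 16 were tested, and 6 were lower with bFGF than in control by that measure (median -0.12), against 7.94% of all tested genes. With control replicate 2 left out, 2 were lower, near the 11.9% of all genes then tested. In the same setting 6 were higher, against 1955 of 15759 genes, and the median of the 16 turned to 0.22. Irf1 had a log2 fold change with bFGF of -1.32 (SE 0.484, adjusted p = 0.285, edgeR), and of 0.09 (SE 0.293, adjusted p = 0.884, edgeR) without control replicate 2. The abundant Jak1 and Socs3, a feedback inhibitor of cytokine receptors, differed from control by 0.11 (SE 0.087) and -0.07 (SE 0.614), and by 0.20 (SE 0.085) and 1.88 (SE 0.332) without that library.

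In the comparisons between hydrogels, the other 5 Gbp genes tested at pH 8.4 all had lower means with aFGF than with bFGF (median log2 fold change -0.86). Of all tested genes, 51.4% were below 0. An unadjusted edgeR p under 0.05 was found for 0 of the 5, against 21.1% of all tested genes in either direction. Gbp4, Gbp6, Gbp8, Gbp9 and Gbp10 were each highest in 8.4-GelMA/bFGF replicate 3 among the libraries of these groups. Gbp8 was at 2.26, 1.78 and 7.05 CPM with bFGF and at 1.15, 2.59 and 2.35 CPM with aFGF. Of the 16 regulators, 5 were lower in 8.4-GelMA/bFGF than in 7.4-GelMA/bFGF at an unadjusted edgeR p under 0.05 (2.99% of all tested genes), 8 did not overlap in that direction (7.19%), and the 16 log2 fold changes were all negative (50% of all tested genes), with a median of -0.32. Irf9, a transcription factor of the interferon response, was at 53.96 CPM in the mean of the alkaline group and 70.8 CPM in that of the neutral one, without overlap. The 19 partners of GBP and IRG proteins in autophagy and the inflammasome had medians of -0.05 with bFGF and 0.01 in 8.4-GelMA/aFGF against control. With bFGF 15 of 19 were negative (53.4% of all tested genes) and 6 were lower at an unadjusted edgeR p under 0.05 (7.94%). Leaving out control replicate 2, 1 was lower (11.9% of all genes then tested) and 6 were higher (1955 of 15759 genes). The median of the 19 partners was then 0.06. Their most abundant genes, Il1b and Gabarap, had log2 fold changes of -0.14 (SE 0.895) and -0.03 (SE 0.104) with bFGF, and of 2.56 (SE 0.825) and 0.05 (SE 0.107) without that library.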

How the data were processed

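RNA was sequenced from 21 skin wound libraries, 3 in each of 7 groups, made with a stranded mRNA kit. For every library the authors deposited unnormalized gene counts and FPKM values. Dividing counts by FPKM and by the library total gave back 1 length for each of 13439 genes, constant over the libraries to 2.93e-06%. The submitters' processing notes name GRCm39. The aligner, the counting tool and the annotation are not given in the sources used here. A RefSeq table of GRCm38.p6 held 18662 (99.2%) of the symbols and was used only for names and gene order, so no coordinates are given. No pair of replicates was identical, and all 21 pairs differed beyond counting noise. The labels call the libraries biological replicates. Whether 1 library stands for 1 mouse or 1 of its wounds is not given in the sources used here, so the SEs and p-values measure the spread between these libraries.

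The main test was edgeR's quasi-likelihood test (edgeR 4.0.16 in R 4.3.3) after TMM scaling and the tool's default filter on low counts, fitted on the libraries compared, with Benjamini-Hochberg adjustment over all genes tested. Calls needed an adjusted p under 0.05 with more than 0.58 between the groups on the log2 scale. Log2 CPM used a prior count of 2. SEs and 95% intervals were derived from the log2 fold change and the F statistic. Alternatives were DESeq2 1.42.0, edgeR with RLE factors, with all genes kept, or with genes of 10 or more counts in each library, a fit over all 21 libraries, the replicate block, no fold change threshold, limma 3.58.1 on log2(FPKM + 1) or log2(FPKM + 0.1) and leaving out each library. The edgeR test was also run on simulated counts, with changed genes drawn from all tested genes. For 6.4-GelMA/bFGF against 7.4-GelMA/bFGF it recovered 26% of 2-fold and 78% of 4-fold changes. For the bFGF hydrogels against control it recovered 50% and 88%. Many 2-fold changes would thus be missed, and recovery for the 10 genes themselves was not simulated. The 10 genes and all lists were chosen with earlier results of these data known. The text names all 10, those with the smallest p and the largest difference in each comparison, and of each pathway list any gene called, the 2 most abundant, Ifng and Irf1. Results of 1 gene that the rule would name are not reported here. Gbp4, Irgc1, Irf9 and the Igtp, Gbp2, Gbp7, Iigp1 and Irgm2 values in single comparisons were chosen after their values were seen.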

Additional observations from a re-analysis of the deposited data

How the results depend on the processing

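Depth was lowest for Gm12185, with as few as 10 counts in a library, whereas every other member had at least 78, and groups had 3 libraries each. DESeq2 called 1 of the 10 genes (6.4-GelMA/bFGF against 7.4-GelMA/bFGF) and 4 of the 10 (bFGF hydrogels against control) where edgeR called 0. The cause was not tested. Over all genes, DESeq2 called 113, 27, 21, 949, 229 and 232 genes (0.631%, 0.149%, 0.116%, 5.21%, 1.24% and 1.29% of those it fitted) in the 6 comparisons in the order of the text, against 0, 0, 0, 1, 0 and 0 by edgeR. The 21-library fit called 10, 2 and 12 genes in the last 3, and limma 1 in the bFGF hydrogels against control. Apart from DESeq2, 0 of the 10 genes were called in any alternative, also without any 1 library. Leaving out single libraries gave 0 to 278 calls over all genes in 6.4-GelMA/bFGF against 7.4-GelMA/bFGF (most without 7.4-GelMA/bFGF replicate 3), 0 to 172 between the growth factors at pH 8.4 (most without 8.4-GelMA/aFGF replicate 3), 0 to 305 in the bFGF hydrogels against control and 0 to 1198 in 8.4-GelMA/aFGF against control (both most without control replicate 2).

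With 1 library left out, the median log2 fold change of the 10 genes was -0.59 to -0.07 for 6.4-GelMA/bFGF against 7.4-GelMA/bFGF, -0.80 to -0.26 for 8.4-GelMA/bFGF against 7.4-GelMA/bFGF, -0.15 to 0.49 for 6.4-GelMA/bFGF against 8.4-GelMA/bFGF, -0.38 to 0.34 for 8.4-GelMA/aFGF against 8.4-GelMA/bFGF, -1.39 to -0.46 for the bFGF hydrogels against control and -1.77 to -0.57 for 8.4-GelMA/aFGF against control. Between the growth factors it was also negative with limma on FPKM, down to -0.18. For 6.4-GelMA/aFGF against 7.4-GelMA/aFGF it was -2.27 to -1.19, and -0.53 with 7.4-GelMA/aFGF replicate 2 alone, a setting chosen after seeing the data. No pairing by replicate number was evident: same-numbered deviations from the group means correlated at -0.36 to 0.42, and in 0 of 11 group pairs was every r over 0.1. With 3 libraries per group, weak pairing could not be seen this way. With the replicate block, 0 of the 10 genes were called in each comparison, and the median for the bFGF hydrogels against control was -1.18.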

Other observations

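Nos2, the inducible nitric oxide synthase, was at 15.5 and 9.37 CPM in control replicates 1 and 3 and at 943 CPM in replicate 2, the control library in which the GTPases were also high. In the 9 bFGF libraries Nos2 was at 293 ± 201 CPM (SD, n = 9), and in 8.4-GelMA/aFGF at 215 ± 122 CPM (SD, n = 3). Socs3, an inhibitor of cytokine signalling, was at 114 and 105 CPM in control replicates 1 and 3 and at 1046 CPM in replicate 2. In the bFGF libraries it was at 409 ± 142 CPM (SD, n = 9). For both genes the direction of the difference between bFGF hydrogels and control therefore depended on control replicate 2, with log2 fold changes of -0.20 (Nos2) and -0.07 (Socs3) with that library and of 4.49 and 1.88 without it.

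Gbp4, a relative of the GTPases described, and Cxcl9, a chemokine that attracts T cells, kept their direction in 8.4-GelMA/aFGF against control. Cxcl9 was at 11.3, 13.3 and 7.58 CPM in 8.4-GelMA/aFGF and at 38.03, 148 and 33.2 CPM in control, without overlap. With the 3 control libraries the log2 fold changes were -2.39 (Gbp4, adjusted p = 0.423, edgeR) and -2.76 (Cxcl9, adjusted p = 0.423, edgeR). Without control replicate 2 they were -1.41 (adjusted p = 0.0497, edgeR) and -1.68 (adjusted p = 0.0323, edgeR), and 7.83% of the 15308 genes tested were called in that setting. In that setting other pathway genes were called higher. They were Nos2 (log2 fold change 4.15, adjusted p = 0.0342, edgeR), Nlrp3 (3.46, 0.044), Socs3 (2.81, 0.0353), Cd274 (1.33, 0.0328) and Jak2 (1.09, 0.0481). Only Gbp4 and Cxcl9 of the pathway lists were called lower. All of these genes were picked after their values had been seen.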
